A study of Rattus norvegicus with 12 samples.

Results

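Messenger RNA of the nuclear-encoded subunits of the respiratory chain and of ATP synthase was examined in the duodenal mucosa of swimming and sedentary rats. The genes were chosen by symbol in the platform annotation. They are the subunits of complex I (symbols beginning Nduf), complex II (Sdha to Sdhd), complex III (Uqcr), complex IV (Cox4 to Cox8) and complex V, the ATP synthase (Atp5), together with cytochrome c (Cycs), while assembly factors were left out. This gave 63 genes of the 13337 symbols on the array, each with 1 probe, among 22523 probes in all. There were 30 genes of complex I, 4 of complex II, 4 of complex III, 11 of complex IV, 13 of complex V, and cytochrome c. No probe named for Cyc1 or for a subunit encoded in mitochondrial DNA was used here. Symbols were matched to current rat gene records by Entrez identifier, and 0 of the 63 changed. One of them, Ndufs6-ps1, is annotated as a pseudogene.

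The series holds 12 female Sprague-Dawley rats aged 9 weeks, from a strain of outbred laboratory rats, 6 assigned at random to swimming and 6 to a control group. Swimming rats performed endurance swimming for 2 weeks, on 5 days per week, after building up during a week of training to an uninterrupted hour of swimming each day. Control rats stayed sedentary in a pool over the same 2 weeks. Epithelial cells were scraped from a 10 cm segment of the duodenum, and their RNA was hybridised to single-colour Illumina bead arrays, 1 array per rat. A scraping takes whatever mucosal cells come away, so fewer cells of a type and less RNA per cell cannot be told apart.

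The respiratory chain lies in the inner mitochondrial membrane. Complexes I and II feed electrons from NADH and succinate to ubiquinone, complex III passes them to cytochrome c, and complex IV reduces oxygen. Complexes I, III and IV pump protons, and ATP synthase uses the returning protons to make ATP. Enterocytes rely on this ATP for the sodium pump, which drives nutrient uptake, and endurance training is best known for raising these transcripts and proteins in skeletal muscle.

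Many of these genes share promoter elements for the factors NRF-1, NRF-2 (the ETS factor GABP) and YY1, and the promoters below are shown because they belong to genes of complexes III, II and V with named differences further on and carry different sets of those elements. Each sequence runs from 200 bases before to 30 bases after the RefSeq gene start, on the strand of the gene, in rat assembly GRCr8, and capitals mark matches on either strand. The first lies at chr8:118468023-118468252 (plus strand), the second at chr13:86097996-86098225 (minus strand) and the third at chr14:1464660-1464889 (plus strand).
Uqcrc1: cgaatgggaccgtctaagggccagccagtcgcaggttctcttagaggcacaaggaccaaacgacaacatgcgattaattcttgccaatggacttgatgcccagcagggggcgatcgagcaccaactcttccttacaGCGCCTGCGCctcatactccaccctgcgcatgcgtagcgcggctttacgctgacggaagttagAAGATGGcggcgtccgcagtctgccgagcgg
Sdhc: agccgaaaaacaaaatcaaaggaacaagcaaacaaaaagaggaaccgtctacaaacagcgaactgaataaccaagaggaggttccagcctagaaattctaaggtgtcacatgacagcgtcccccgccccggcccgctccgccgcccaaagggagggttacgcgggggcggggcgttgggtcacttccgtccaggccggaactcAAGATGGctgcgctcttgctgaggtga
Atp5me: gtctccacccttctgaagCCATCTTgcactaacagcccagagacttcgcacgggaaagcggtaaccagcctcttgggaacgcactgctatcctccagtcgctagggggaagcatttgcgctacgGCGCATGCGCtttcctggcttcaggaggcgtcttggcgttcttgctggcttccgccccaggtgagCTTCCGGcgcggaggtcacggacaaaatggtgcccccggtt
The Uqcrc1 promoter matched the NRF-1 and YY1 motifs, the Sdhc promoter YY1, and the Atp5me promoter all 3. The motifs searched were GCGC, then any base, then TGCGC for NRF-1, CCGGAAG for NRF-2 and AAGATGG for YY1, of which the last pair can overlap at the letters AAG. RefSeq promoters, 250 bases before to 50 after the start, were at hand for 55 of the 63 genes. The NRF-1 motif was found in 13 of the 55 (23.6%) and in 6.08% of 18999 promoters of protein-coding genes. The NRF-2 motif was found in 16 of 55 (29.1%), against 11.2% of all promoters, and the YY1 motif in 10 of 55 (18.2%), against 7.58%. Among the 10965 promoters whose genes are on the array, the shares were 7.23% for NRF-1, 12.8% for NRF-2 and 7.51% for YY1. Of the 55, 23 matched none of the motifs. A match describes the letters in the window and shows no binding.

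Raw medians of the 12 arrays lay between 62.7 and 88.8 intensity units. Values below are log2 intensities after background correction and quantile normalization, on which the highest possible value was 15.18 and the median probe read 6.36. Of the 63 genes, 59 were brighter than the median probe. 10 averaged above 14, toward the top of the scale, where a difference may understate a change in RNA, which was not tested. The arrays of control 4 and control 6, and those of swimming 4 and swimming 6, were near-identical within each pair, with a smaller spread over their brightest probes than over their dimmest, and each pair was averaged to 1 sample, leaving 5 samples per group. Nothing in the labels describes technical repeats. Control 3 and swimming 3 were also near-identical and span the comparison. The array labelled swimming 5 lacked the marker genes of the proximal small intestine: 12 of 16 such markers lay more than 1 log2 outside the range of the other 11 arrays, and 3 of 9 markers of the large intestine (Car1, Hoxa7 and Scnn1b) lay that far above it. The mean of the proximal list was 7.28 in swimming 5, against 11.1 to 11.7 in the other arrays. Markers of epithelial cells as a class, such as Epcam and Vil1, were present on every array, with list means of 13.5 to 13.7 in swimming and 13.5 to 13.6 in control arrays.

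**Figure D1:**
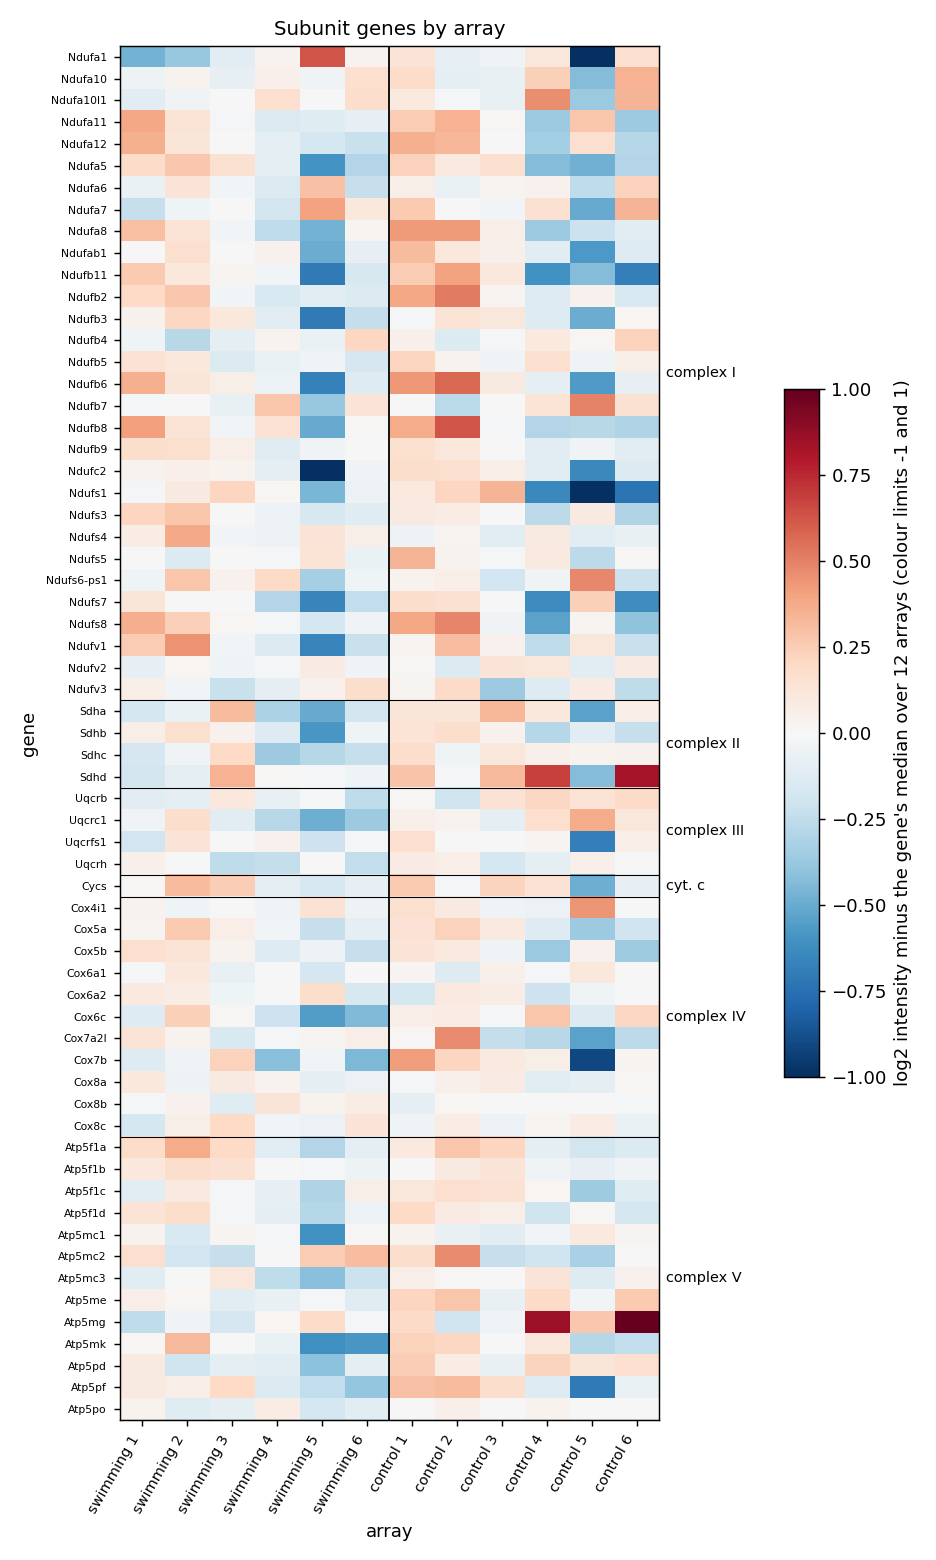
Log2 intensity of each of the 63 genes (down the page, by complex) on each of the 12 arrays (swimming left, control right), minus the gene's own median over the arrays; red is above and blue below that median, and colours stop at -1 and 1. The median over the 63 genes was lowest in swimming 5 (-0.17) and control 5 (-0.10). Fewest genes lay above their own median in swimming 5 (13) and in swimming 4 and 6 (17 each), against 25 in control 5. No complex separates the groups as a block.

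No gene of the 63 reached an adjusted p under 0.05. Of the 63 genes, 40 read lower and 23 higher in swimming rats, with a median difference of -0.047 log2, against -0.00097 over all 22523 probes. limma called 0 of 63 at an adjusted p under 0.05, as it called 0% of all probes, and adjusted p-values of the 63 lay between 0.985 and 0.999. Without adjustment 1 gene, Atp5pd, had p under 0.05, where 2.8% of all probes did (1.56% in the same direction, lower in swimming rats). In 0 of the 63 did the swimming and control samples fail to overlap, against 0.573% of all probes. The standard error of a difference lay between 0.052 and 0.29 log2 (median 0.14). The 95% interval of the difference lay within 0.5 log2 of 0 for 47 of the 63 genes and within 1 log2 for all 63.

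The share of genes that read lower moved with single arrays. Without swimming 5, 32 of the 63 read lower and 31 higher, with a median of -0.0070, and 16 genes changed sign. Without control 1 or control 2, 34 and 33 read lower, and without control 5, 52 did. Leaving out swimming 5 together with the near-identical pair of control 3 and swimming 3 gave a median of 0.0034. Across all 22523 probes, 50.3% read lower in swimming rats with all samples.

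**Figure D2:**
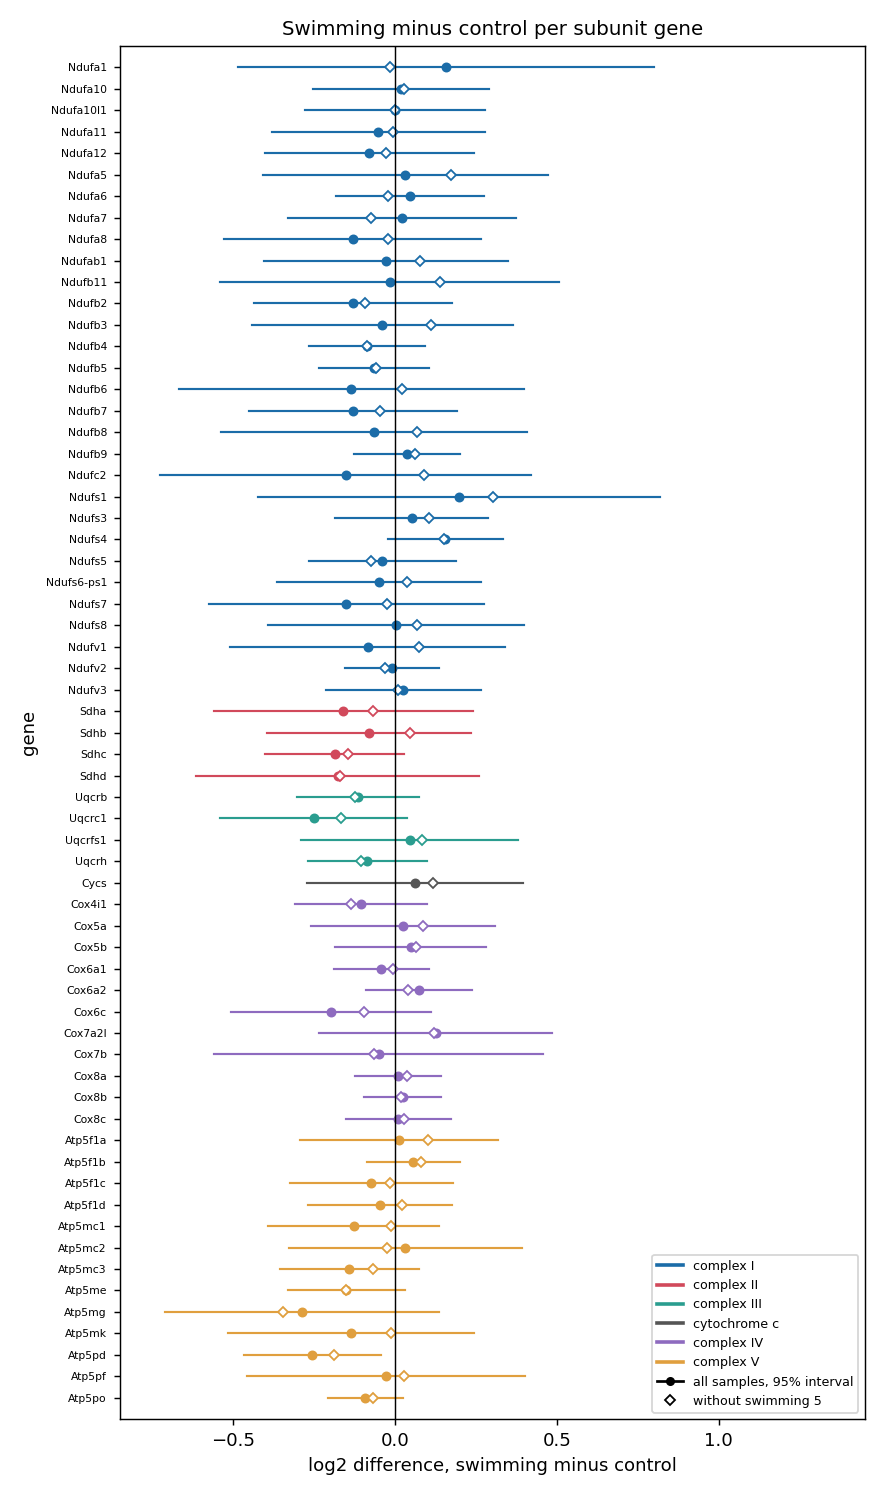
Difference in log2 intensity, swimming minus control, for each of the 63 genes (down the page, coloured by complex). Filled points and lines are the estimate and 95% interval over 5 samples per group, and open diamonds are the estimate without swimming 5; 62 of the 63 intervals include 0, the exception being Atp5pd.

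Complex I, the NADH dehydrogenase and the chain's largest member, gave 19 genes lower and 11 higher in swimming rats, with a median difference of -0.033 and a range of -0.15 (Ndufc2) to 0.20 (Ndufs1). Its 6 measured core subunits (Ndufs1, Ndufs3, Ndufs7, Ndufs8, Ndufv1 and Ndufv2), which include those that hold the flavin and iron-sulfur centres, split into 3 lower and 3 higher. Of the 9 Ndufb accessory subunits of the membrane arm, 8 read lower, with a median of -0.064. Without swimming 5 only 4 of these 9 read lower, the median of the 9 was 0.022, and that of the whole complex was 0.016.

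The members of complex I with the smallest p among bright probes were Ndufb4, Ndufb2 and Ndufb7, all membrane-arm accessory subunits. Throughout, the swimming values are given for swimming 1, 2 and 3, the averaged 4 and 6, and 5, and the control values in the same order. Ndufb4 read 6.37, 6.14, 6.32, 6.53 and 6.35 in swimming samples, against 6.46, 6.27, 6.39, 6.57 and 6.43 in control samples, a difference of -0.086 (SE 0.081), and its signal was close to that of the median probe. Ndufb2 read 12.74, 12.81, 12.51, 12.40 and 12.43 in swimming samples, against 12.93, 13.06, 12.57, 12.40 and 12.58 in control samples, a difference of -0.13 (SE 0.14). In both genes the groups overlapped over most of their range. Ndufb7 read 13.05, 13.06, 12.996, 13.27 and 12.69 in swimming samples, against 13.06, 12.80, 13.07, 13.21 and 13.56 in control samples, a difference of -0.13 (SE 0.14; -0.047 without swimming 5). Its lowest value was in swimming 5 and its highest in control 5.

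Among genes named after their values were seen, Ndufs1, the largest core subunit, had the largest upward difference of the 63, 0.20 (SE 0.28). It read 11.46, 11.57, 11.69, 11.46 and 11.03 in swimming samples, against 11.58, 11.69, 11.82, 10.79 and 10.33 in control samples. The averaged control 4 and 6 and control 5 lay below every swimming sample, while the other control samples lay within or above the swimming range. Without control 5 the difference was -0.029. Ndufs4, a core-associated accessory subunit needed for assembly, was dimmer than the median probe, at 5.99, 6.30, 5.89, 5.93 and 6.05 in swimming samples and 5.87, 5.95, 5.82, 5.93 and 5.81 in control samples (difference 0.16, SE 0.079). At such a low signal a difference would understate any change in RNA, and whether the Ndufs4 probe rose above background was not tested. Ndufa10 and Ndufa10l1, an annotated paralog of it, differed by 0.020 and -0.0012. Their probes read within 0.26 log2 of each other on every array, and whether each detects its own transcript alone was not tested.

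Complex II, succinate dehydrogenase, links the citrate cycle to the chain, and all 4 of its subunit genes are encoded in the nucleus. All 4 read lower in swimming rats, with a median of -0.17, and none passed. The catalytic flavoprotein Sdha read 12.15, 12.26, 12.64, 12.07 and 11.82 in swimming samples, against 12.44, 12.44, 12.65, 12.40 and 11.79 in control samples, a difference of -0.16 (SE 0.18; -0.067 without swimming 5). The iron-sulfur subunit Sdhb read 13.41, 13.51, 13.39, 13.26 and 12.77 in swimming samples, against 13.49, 13.52, 13.39, 13.09 and 13.24 in control samples, a difference of -0.080 (SE 0.14) that turned to 0.045 without swimming 5. For both genes the lowest swimming sample was swimming 5, and for Sdha control 5 was as low.

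Sdhc and Sdhd anchor the complex in the membrane. Sdhc read 13.88, 14.01, 14.25, 13.75 and 13.77 in swimming samples, against 14.23, 14.01, 14.17, 14.10 and 14.09 in control samples, a difference of -0.19 (SE 0.096, unadjusted p = 0.0817, adjusted p from limma 0.985). Sdhd read 12.58, 12.67, 13.11, 12.75 and 12.75 in swimming samples, against 13.05, 12.76, 13.09, 13.52 and 12.33 in control samples, a difference of -0.18 (SE 0.20). Swimming 3 was among the highest samples of both genes, and it is the array near-identical to control 3. Without swimming 3 the median difference of complex II was -0.26, and without swimming 5 it was -0.11.

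**Figure D3:**
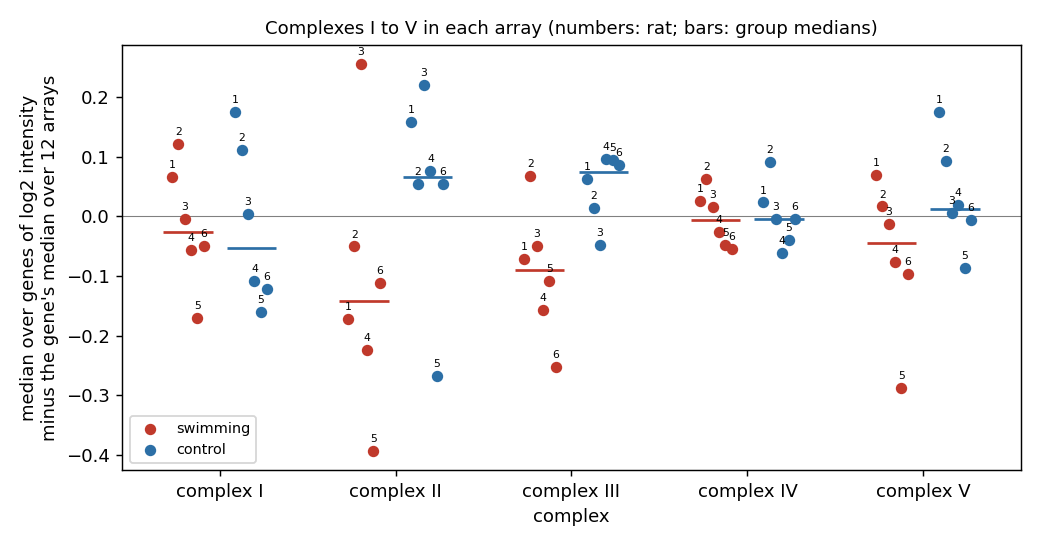
Median over the genes of each complex of the log2 intensity minus the gene's own median over the 12 arrays (vertical axis), per array (points, with the rat's number), with swimming left and control right in each complex. Group bars are medians over 6 arrays; the groups overlap in every complex, and in complex II swimming 3 and control 5 lie on the side of the other group.

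Complex III, the cytochrome bc1 complex, had 3 genes lower and 1 higher, with a median of -0.099 and -0.11 without swimming 5. Uqcrc1, a large matrix-side core protein whose promoter is printed above, read 13.39, 13.60, 13.32, 13.10 and 12.93 in swimming samples, against 13.47, 13.45, 13.33, 13.56 and 13.79 in control samples. The difference was -0.25 (SE 0.13, unadjusted p = 0.0801, adjusted p from limma 0.985) and -0.17 without swimming 5. Swimming 2 was above all control samples but control 5, so the groups overlapped. Uqcrb, a small subunit at the ubiquinone site, read 13.89, 13.91, 14.10, 13.84 and 13.99 in swimming samples, against 14.01, 13.80, 14.14, 14.20 and 14.14 in control samples, a difference of -0.11 (SE 0.085). Uqcrh, the hinge protein that contacts cytochrome c1, read 14.81, 14.76, 14.50, 14.51 and 14.75 in swimming samples, against 14.83, 14.82, 14.58, 14.71 and 14.81 in control samples, a difference of -0.085 (SE 0.083). Both probes lay near the top of the scale with groups that overlapped. Uqcrfs1, the Rieske iron-sulfur protein and the only gene of complex III that read higher, differed by 0.046 (SE 0.15). It read 13.36, 13.68, 13.56, 13.57 and 13.35 in swimming samples, against 13.72, 13.55, 13.55, 13.60 and 12.87 in control samples. Its sign rested on control 5, and without that sample the difference was -0.10.

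The gene of cytochrome c, the soluble carrier between complexes III and IV, gave no called difference. Cycs read 14.38, 14.69, 14.62, 14.29 and 14.21 in swimming samples, against 14.63, 14.36, 14.60, 14.41 and 13.88 in control samples, a difference of 0.063 (SE 0.15). The lowest sample was control 5, and without it the difference turned to -0.061.

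Complex IV, cytochrome c oxidase, had 4 genes lower and 7 higher, with a median of 0.010 and 0.028 without swimming 5. Cox6c, a small regulatory subunit, read 8.01, 8.37, 8.15, 7.81 and 7.58 in swimming samples, against 8.20, 8.21, 8.12, 8.38 and 8.002 in control samples, a difference of -0.20 (SE 0.14; -0.095 without swimming 5). Cox4i1, the ubiquitous form of subunit 4, read 14.11, 14.04, 14.08, 14.03 and 14.22 in swimming samples, against 14.24, 14.17, 14.04, 14.04 and 14.51 in control samples, a difference of -0.10 (SE 0.092). Control 5 held the highest Cox4i1 value, and the other 9 samples lay within 14.03 to 14.24. Cox7a2l, which joins complex III to complex IV in supercomplexes, read 11.11, 11.01, 10.82, 10.999 and 11.003 in swimming samples, against 10.99, 11.45, 10.73, 10.70 and 10.44 in control samples, a difference of 0.13 (SE 0.16; 0.020 without control 5). Its control samples spanned the whole swimming range. Cox7b, named after its values were seen, read 13.46, 13.55, 13.81, 13.15 and 13.56 in swimming samples, against 13.999, 13.79, 13.68, 13.62 and 12.67 in control samples, a difference of -0.050 (SE 0.23), with control 5 the lowest of the 10.

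The forms of complex IV subunits known from other tissues stayed at the bottom of the scale. Cox6a2 and Cox8b, the heart and skeletal muscle forms of subunits 6a and 8, and Cox8c, a form known from testis, were all dimmer than the median probe. Cox6a2 read 6.32, 6.30, 6.19, 6.14 and 6.40 in swimming samples and 6.05, 6.32, 6.30, 6.12 and 6.19 in control samples. Cox8b read 6.14, 6.21, 6.04, 6.26 and 6.19 in swimming samples and 6.07, 6.18, 6.15, 6.15 and 6.16 in control samples. Cox8c read 6.07, 6.31, 6.44, 6.29 and 6.19 in swimming samples and 6.20, 6.32, 6.18, 6.22 and 6.32 in control samples, and the differences of the 3 genes were 0.074, 0.024 and 0.010. The groups overlapped in each of them. The widespread forms Cox6a1 and Cox8a averaged 14.87 and 13.86 in swimming samples and 14.91 and 13.85 in control samples, but different probes do not share a scale. Markers of smooth and striated muscle had list means of 6.78 to 7.11 in swimming arrays and 6.78 to 7.09 in control arrays.

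ATP synthase, complex V, had 10 genes lower and 3 higher in swimming rats, with a median difference of -0.092. Without swimming 5 the median was -0.014, though 9 of the 13 still read lower. Genes of the catalytic head and central stalk, Atp5f1a to Atp5f1d, split evenly between directions and lay between -0.072 and 0.056. The 3 genes of the peripheral stalk and the 3 small membrane accessory subunits all read lower. Atp5pf of the stalk differed by -0.027 with all samples and 0.028 without swimming 5. The accessory gene Atp5mk differed by -0.14 with all samples and -0.012 without swimming 5.

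Atp5pd, the peripheral stalk subunit d, had the smallest p of the 63 genes. It read 12.005, 11.72, 11.82, 11.82 and 11.51 in swimming samples, against 12.16, 11.99, 11.85, 12.11 and 12.04 in control samples. Swimming 1 lay within the control range and the other swimming samples below every control sample. The means were 11.77 ± 0.18 in swimming and 12.03 ± 0.12 in control samples (SD, n = 5 each), a difference of -0.25 (SE 0.095, 95% interval -0.47 to -0.044, unadjusted p = 0.0226, adjusted p from limma 0.985). It was -0.19 without swimming 5. Atp5po, the stalk subunit that links head and membrane part and confers oligomycin sensitivity, read 14.93, 14.77, 14.80, 14.87 and 14.72 in swimming samples, against 14.89, 14.95, 14.90, 14.91 and 14.90 in control samples, a difference of -0.092 (SE 0.052).

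Of the membrane accessory subunits, which hold ATP synthase dimers together, Atp5me (subunit e, promoter above) read 13.91, 13.85, 13.73, 13.74 and 13.82 in swimming samples, against 14.06, 14.12, 13.76, 14.06 and 13.81 in control samples, a difference of -0.15 (SE 0.082). Control 3 and control 5 lay within its swimming range. Atp5mg, subunit g, read 13.32, 13.54, 13.40, 13.57 and 13.75 in swimming samples, against 13.76, 13.37, 13.53, 14.51 and 13.84 in control samples, the largest downward difference of the 63 genes at -0.29 (SE 0.19). That difference rested on the averaged control 4 and 6, and without both arrays it was -0.11.

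The proton-carrying c ring is built from a mature protein that Atp5mc1, Atp5mc2 and Atp5mc3 encode alike, with different import sequences. Atp5mc1 read 14.97, 14.79, 14.96, 14.94 and 14.33 in swimming samples, against 14.97, 14.86, 14.83, 14.93 and 15.03 in control samples, a difference of -0.13 (SE 0.12) that was -0.012 without swimming 5. Atp5mc2 read 12.44, 12.08, 12.04, 12.43 and 12.52 in swimming samples, against 12.45, 12.75, 12.04, 12.17 and 11.95 in control samples, a difference of 0.032 (SE 0.16). Atp5mc3, whose probe lay little above the median probe, read 6.81, 6.91, 7.03, 6.68 and 6.50 in swimming samples, against 6.98, 6.93, 6.93, 7.004 and 6.79 in control samples, a difference of -0.14 (SE 0.096). The groups overlapped in all 3 genes, and in swimming 5 Atp5mc1 and Atp5mc3 were the lowest while Atp5mc2 was the highest of the swimming samples.

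**Figure D4:**
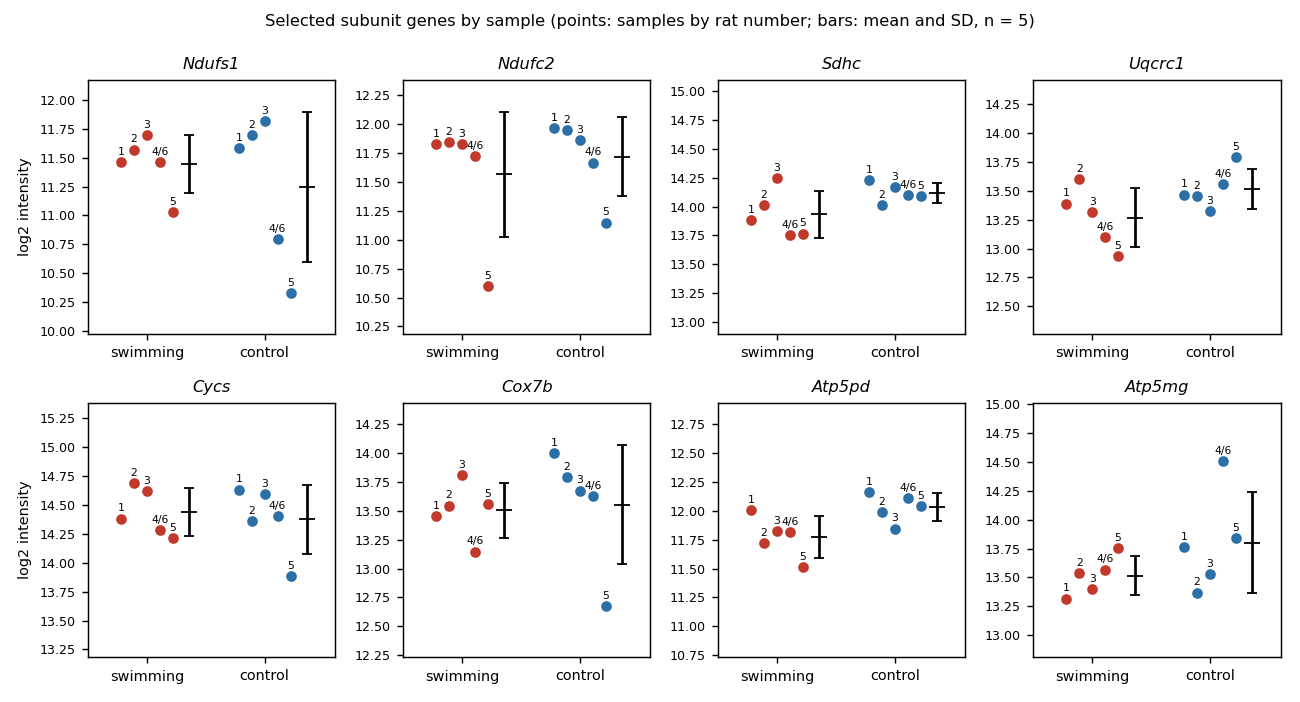
Log2 intensity of 8 subunit genes in each sample (points, labelled by rat, 4/6 being the average of 2 near-identical arrays), swimming left and control right, with mean and SD (n = 5 each) beside them. Every panel spans 2.2 log2 units; single samples such as swimming 5 for Ndufc2 (10.60) and control 5 for Cox7b (12.67) stand away from the rest, and the groups overlap in every panel.

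Rats of a group varied in single genes and in whole complexes. The median SD of a gene over the 10 samples was 0.23 log2, against 0.24 for all probes brighter than the median. The sample medians of complex III, as deviations from each gene's median, averaged -0.073 ± 0.099 in swimming and 0.043 ± 0.060 in control samples (SD, n = 5 each). Those of complex II averaged -0.11 ± 0.24 in swimming and 0.046 ± 0.19 in control samples. In both complexes the samples of the groups overlapped. Samples differed in how many genes had an extreme there: 23 of the 63 had their lowest value in swimming 5 and 20 in control 5, while 14 had their highest in control 2 and 11 in swimming 2. Direction was not shared by all genes of a sample. Control 5 was lowest for Ndufs1, Cox7b and Cycs but highest for Ndufb7, Uqcrc1 and Cox4i1, and the averaged control 4 and 6 was low for Ndufs1 and highest for Sdhd and Atp5mg. Raw array medians were 88.8 in control 1 and 83.7 in control 2, whose complex I medians were the highest of the controls, and 70.9, 74.9 and 70.1 in controls 4, 5 and 6, whose complex I medians were the lowest. The part of array brightness in these shifts was not tested. Swimming 4 and 6, with raw medians of 83.8 and 62.7, had complex I medians of -0.057 and -0.050. Exocrine pancreas markers were high in swimming 2, swimming 3 and control 3, with list means of 10.6, 9.68 and 9.69, against 6.86 to 8.15 in the other swimming and 7.26 to 7.52 in the other control arrays. Of the 19 measured pancreas markers 17 read higher in swimming rats, with a median difference of 0.87 and 0 at an unadjusted p under 0.05. Stroma markers were highest in swimming 1 (7.74) and control 2 (7.73), against 7.12 to 7.21 in the other swimming and 6.61 to 7.13 in the other control arrays. Of the 14 measured stroma markers 13 read higher in swimming rats, with a median of 0.17 (0.18 without swimming 5). At an unadjusted limma p under 0.05 there was 1 of the 14, against 2.8% of all probes in either direction, and 0 were called. All 8 measured erythroid markers read lower in swimming rats, with list means of 7.10 (swimming 5) to 7.95 in swimming and 7.88 to 8.36 in control arrays. Of these 8 markers, 2 had an unadjusted limma p under 0.05, against 1.56% of all probes in that direction, and 0 were called. The part of these cells in the subunit values was not tested.

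In swimming 5, the array without proximal markers, most of the subunit genes that left the range of the other arrays lay below it. None of the 63 lay more than 1 log2 outside the range of the other 11 arrays, against 3.51% of all probes. 26 lay outside that range by any amount, 22 below and 4 above, against 31.4% of all probes (14.5% below and 16.9% above). Of the 59 bright members 25 lay outside it, against 45.9% of probes brighter than the median probe, and none by more than 1 log2, against 6.81%. The median of the 63 was -0.18 relative to the median of the other arrays, and it was -0.44 for complex II, -0.32 for complex V, -0.17 for complex I, -0.12 for complex III and -0.079 for complex IV.

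The members furthest below the other arrays in swimming 5 all belonged to complex I. Ndufc2, a membrane-arm subunit, read 10.60 in swimming 5, against 11.15 to 11.97 in the other arrays. Over the samples it read 11.83, 11.85, 11.83, 11.73 and 10.60 in swimming and 11.97, 11.95, 11.86, 11.67 and 11.15 in control samples, with a group difference of -0.15 that turned to 0.089 without swimming 5. Ndufb6 read 11.33, 11.10, 11.04, 10.89 and 10.31 in swimming and 11.41, 11.55, 11.07, 10.89 and 10.41 in control samples. In both genes swimming 5 and control 5 were the lowest of their groups. Ndufb11, encoded on the X chromosome, read 12.75, 12.60, 12.52, 12.40 and 11.79 in swimming and 12.74, 12.89, 12.60, 11.85 and 12.06 in control samples. Ndufb3 read 12.35, 12.52, 12.42, 12.13 and 11.60 in swimming and 12.29, 12.44, 12.42, 12.26 and 11.81 in control samples. Ndufa5, a subunit of the ubiquinone-binding module, read 12.95, 13.03, 12.92, 12.56 and 12.16 in swimming and 12.996, 12.86, 12.92, 12.40 and 12.28 in control samples. Swimming 5 was the lowest of the 10 samples in all of these genes, which were chosen for their low values there. The group differences of Ndufb6, Ndufb11, Ndufb3 and Ndufa5 were -0.13, -0.017, -0.038 and 0.032, and without swimming 5 they were 0.022, 0.14, 0.11 and 0.17. A rise without swimming 5 follows from that choice.

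The members furthest above the other arrays in swimming 5 were Ndufa1, Ndufa7, Ndufa6, Atp5mc2 and Atp5mg. Ndufa1, a small membrane-arm subunit needed for assembly, read 11.09, 11.18, 11.45, 11.59 and 12.19 in swimming and 11.69, 11.47, 11.53, 11.70 and 10.33 in control samples, with a group difference of 0.16 (SE 0.29) that was -0.015 without swimming 5. Its highest value was in swimming 5 and its lowest in control 5. Ndufa7 read 7.81, 7.99, 8.03, 8.001 and 8.44 in swimming and 8.30, 8.04, 8.01, 8.29 and 7.54 in control samples. Ndufa6 read 12.60, 12.80, 12.63, 12.48 and 12.96 in swimming and 12.72, 12.60, 12.69, 12.80 and 12.41 in control samples. The differences of the last pair, 0.022 and 0.046, were -0.074 and -0.020 without swimming 5. A fall without swimming 5 likewise follows from choosing genes that are high in it. For Atp5mg and Atp5mc2, swimming 5 stayed within the range of the other arrays.

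**Figure D5:**
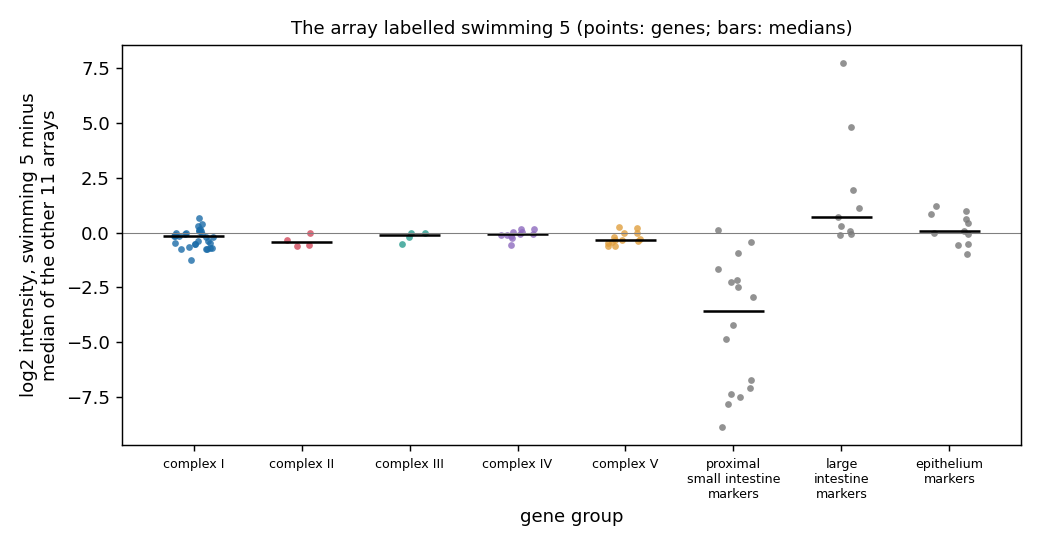
Log2 intensity in the array labelled swimming 5 minus the median of the other 11 arrays (vertical axis), for genes of complexes I to V and for 3 marker lists (points are genes, bars medians). The complexes have medians of -0.44 to -0.079, while the median is -3.57 for proximal small intestine markers and 0.73 for large intestine markers.

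Genes that regulate, assemble or work with the chain also showed no called difference, and limma called 0 in each of the lists below, with 0 at an unadjusted p under 0.05. Of 22 measured regulators of mitochondrial biogenesis, 13 read higher and 9 lower, with a median of 0.016. Those with the smallest p were Ppard, a nuclear receptor for fatty acids, at -0.36 (SE 0.18), Pprc1, a coactivator related to PGC-1alpha, at 0.33 (SE 0.21), and the dim probe of Gabpb1, a partner subunit of NRF-2, at -0.13 (SE 0.083). Ppargc1a, which encodes PGC-1alpha, the coactivator best known for its response to endurance exercise in muscle, was added after its values were seen. It read 8.06, 8.48, 8.33, 7.78 and 7.98 in swimming samples, against 8.15, 8.27, 8.64, 7.97 and 8.32 in control samples, a difference of -0.14 (SE 0.15), with groups that overlapped and a sign that turned to 0.0053 under median scaling.

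Of 33 assembly and maturation factors, 18 read higher and 15 lower, with a median of 0.0077. Acad9, an assembly factor of complex I, differed by -0.25 (SE 0.16), Coa5, one of complex IV, by -0.42 (SE 0.27), and Sco1, a copper chaperone of complex IV, by -0.24 (SE 0.18; -0.11 without swimming 5). Of 9 genes of ubiquinone synthesis, 6 read higher, with a median of 0.12 that was 0.028 without swimming 5. Coq2, which joins the ring to its side chain, differed by 0.17 (SE 0.084), Coq10b by 0.23 (SE 0.17), and Coq8a by 0.42 (SE 0.35; 0.16 without swimming 5). Of 16 exchange proteins and other electron donors of the mitochondrial membranes, 6 read higher and 10 lower, with a median of -0.016. Vdac1, the outer membrane channel, differed by -0.17 (SE 0.092), Gpd2, the glycerol phosphate shuttle dehydrogenase, by -0.67 (SE 0.45; -0.31 without swimming 5), and Slc25a4, an ADP/ATP carrier, by 0.25 (SE 0.22; 0.064 without swimming 5).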

How the data were processed

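The raw table deposited by the authors gives, per the file headers, an average intensity per probe, on a linear scale. No background had been subtracted and array medians still differed. A second deposited table holds the authors' processed intensity values of the same arrays, background-subtracted and with the same median in each, by a method not given in the sources used here. Raw values of all 22523 probes were background-corrected with normexp (offset 50), put on a log2 scale and quantile-normalized with limma 3.58.1 in R 4.3.3, with no filter. All 66 pairs of arrays were compared by the spread of log2 differences over 4869 probes with a mean log2 above 8 and 5192 with one under 6.1. 3 pairs had a spread of at most 0.16 over the brighter set, below that over the dimmer set, where the other pairs without swimming 5 had at least 0.22, and the 2 pairs within a group were averaged. Each probe's swimming minus control difference was tested two-sided by limma's lmFit and eBayes, with Benjamini-Hochberg adjustment over all probes, and calls were made at adjusted p under 0.05. No list or score was tested. Each p-value sets the group difference against the spread between these samples, treated as independent, and the number of arrays limits its precision. The near-identical control 3 and swimming 3 entered as separate samples of opposite groups. The fit was also run on simulated independent samples, with no near-identical pair across groups. The outcome is not reported here, so it gives no measure of power for these data. Elsewhere bright and dim mean above and below the median probe, since detection p-values were not used here.

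Genes named with values are the 3 with the smallest p among bright probes in complexes I, III, IV and V, all Sdh genes, Cycs, the tissue forms of complex IV subunits, the c ring genes, the 5 furthest from the other arrays in swimming 5 in each direction, and 3 of each pathway list. Other names were chosen after values were seen. The genes and lists were chosen with earlier results of these data known. 13793 probes have 1 gene symbol and 8730 are unnamed here. Promoters are from RefSeq (GRCr8). Alternatives covered background correction, normalization, the authors' values floored at 16, the variance model, dim probes, single arrays, pairs and a block.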

Additional observations from a re-analysis of the deposited data

Results flagged for a closer look

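In each group of 5 samples, a sample was singled out where its gap to the nearest other sample exceeded 0.71 of the group's range (Dixon's 95% criterion), which chance meets in about 1 in 20 groups. Over all 63 genes this marked 9 of 126 combinations of gene and group, 7.14%, of which 4 were control 5, 2 swimming 5 and 2 the averaged control 4 and 6. Swimming 5 stood apart for Ndufc2 at 10.60, against 11.73 to 11.85 in the other swimming samples, and for Ndufab1 at 12.18, against 12.65 to 12.83. Control 5 stood apart for Ndufa1 at 10.33, against 11.47 to 11.70 in the other control samples. It did so for Sdha at 11.79, against 12.40 to 12.65, for Uqcrfs1 at 12.87, against 13.55 to 13.72, and for Cox7b at 12.67, with 13.62 the nearest other control sample. The averaged control 4 and 6 stood apart for Ndufs3 at 12.29, against 12.58 to 12.67 in the other control samples, and for Ndufs7 at 11.55, against 12.18 to 12.41. Control 1 stood apart for the dim probe of Cox8b at 6.07, against 6.15 to 6.18.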

How the results depend on the processing

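No alternative of the 24 tried gave a called subunit gene. No alternative moved the median difference of a complex or of all 63 genes by as much as the within-group SD of its sample medians (for complex III, a largest move of 0.043 against an SD of 0.082). For complexes I, II, IV and V and for all 63 genes that SD was larger than the median difference itself (for complex I, 0.13 against -0.033). There a difference could vanish or turn sign within the SD, so this limit shows no stability. Leaving out single arrays moved the median from -0.083 (without control 5) to 0.016 (without swimming 5) for complex I, from -0.26 to -0.11 for complex II, from -0.12 to -0.089 for complex III, from -0.012 to 0.028 for complex IV, from -0.16 (without control 5) to -0.014 (without swimming 5) for complex V and from -0.088 to -0.0064 for all 63. The complex I median was also positive under median scaling (0.027) and cyclic loess (0.0051). Of 58 named genes, 35 kept their sign in each setting that gave a value. The other 23, none past the threshold in any setting, turned sign in at least 1, and the cause was not tested. Without swimming 5 and the pair of control 3 and swimming 3, Sdhb was at 0.057, Atp5mc2 at -0.012, Cox8c at -0.043, Ndufc2 at 0.12, Ndufb6 at 0.040, Ndufb11 at 0.20, Ndufb3 at 0.14, Ndufa1 at -0.011, Ndufa7 at -0.11, Ndufa6 at -0.011, Atp5pf at 0.014, Cox6a1 at 0.029 and Ndufab1 at 0.11. With 12 separate arrays, Ndufb11 was at 0.078, Ndufa7 at -0.029, Ndufa6 at -0.016 and Ndufa10 at -0.014. Under median scaling, Cox8c was at -0.0024, Ndufb11 at 0.045, Ndufb3 at 0.039, Ndufa10l1 at 0.057, Ndufab1 at 0.015 and Ppargc1a at 0.0053. Under cyclic loess, Ndufb11 was at 0.020, Ndufb3 at 0.0093, Cox7b at 0.0079 and Ndufa10l1 at 0.020. Without both arrays of the averaged control pair, Ndufa5 was at -0.041, Ndufa10l1 at 0.098, Cox8a at -0.0024 and Ndufs3 at -0.018, and without those of the swimming pair, Cox7b was at 0.039, Ndufa10 at -0.0083 and Atp5pf at 0.031. Leaving out single arrays gave ranges across 0: Sdhb -0.14 to 0.045, Cycs -0.061 to 0.13, Atp5mc2 -0.049 to 0.15, Cox8c -0.035 to 0.058, Ndufc2 -0.30 to 0.089, Ndufb6 -0.30 to 0.022, Ndufb11 -0.11 to 0.14, Ndufb3 -0.15 to 0.11, Ndufa5 -0.070 to 0.17, Ndufa1 -0.096 to 0.26, Ndufa7 -0.10 to 0.088, Ndufa6 -0.020 to 0.070, Ndufs1 -0.029 to 0.34, Cox7b -0.27 to 0.062, Ndufa10 -0.082 to 0.073, Ndufa10l1 -0.096 to 0.028, Uqcrfs1 -0.10 to 0.11, Atp5pf -0.20 to 0.053, Cox8a -0.016 to 0.036, Ndufs3 -0.0046 to 0.10 and Ndufab1 -0.16 to 0.078. Leaving out 1 array moved the difference by over 1.5 times for 28 of the 37 genes that kept their sign under it. The authors' processed values were at the floor in every sample for Cox8b and Ndufs4, and every member has 1 probe, so averaging probes of a gene changed nothing.

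Swimming and control rats share replicate numbers in the labels, but deviations from the group means of same-numbered arrays correlated at 0.73 for number 3, the near-identical pair, and at -0.023 to 0.25 for the others, and 3 of 6 swimming arrays matched their own number best, a hint from the data and not the design. Since 3 of the correlations were not above 0.1, the numbers were not taken to pair the samples. With the number as a replicate block on 12 arrays, limma called 0 genes and the median of all 63 was -0.038. Ndufb11 was at 0.078, Ndufa7 at -0.029, Ndufa6 at -0.016 and Ndufa10 at -0.014, the same as with 12 separate arrays and no block. Since each number occurs in both groups, the block could not move a difference, so among the alternatives it is no further check of direction. The near-identical arrays within each group entered this fit as separate samples. The number of rats and of arrays limits these comparisons, and dim probes limit what can be seen of Ndufs4, Cox6a2, Cox8b and Cox8c.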
